A study of Homo sapiens with 39 samples.

Results

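The genes described here are 7 enzymes and cofactors that write, copy and erase DNA methylation: UHRF1, DNMT1, DNMT3A, DNMT3B, TET1, TET2 and TET3. They were chosen by name, as the targets of single-guide RNAs in pooled CRISPR knockout screens, and they are 7 of 1115 genes in an epigenetic library and 7 of 19101 tested genes in a whole-genome library. Each was targeted by 10 guides in the epigenetic library and by 4 in the whole-genome library, so 70 and 28 guides were followed, and every one passed the filter on low counts. The guides of 1 gene share that gene as a target and are not replicates of a condition.

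DNA methylation at CpG sites is copied after each round of replication. UHRF1 recognises hemimethylated DNA behind the replication fork and recruits DNMT1, the maintenance methyltransferase, which restores the mark on the new strand. DNMT3A and DNMT3B place methylation on sites that lacked it, and TET1, TET2 and TET3 oxidise 5-methylcytosine, which starts its removal. Loss of a gene that cells need for growth lowers the abundance of its guides in the population over time, and loss of a gene that holds back growth raises it.

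All cells were A375, an established melanoma line with an activating BRAF mutation, and all of them, controls included, carried a knockout of MED12 or of MED23, 2 subunits of the Mediator complex that links transcription factors to RNA polymerase. MED12 knockout cells received the epigenetic or the whole-genome library and were sampled at day 0 and after 8 and 14 days in DMSO or in 2 µM vemurafenib, an inhibitor of mutant BRAF. MED23 knockout cells received the epigenetic library and were sampled at day 0 and after 14 days in DMSO or 1 µM vemurafenib. These 13 groups of 3 libraries make 39 libraries, and cells with intact Mediator were not analysed here. The labels do not say whether a knockout line was 1 clone or a pool, or whether libraries of a group came from separate cultures, so p-values measure the spread between these libraries, which may be technical.

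Depth was 16385695 to 20814734 counts per library in the MED12 epigenetic screen, 22846325 to 28994690 in the MED23 screen and 47766947 to 87591804 in the whole-genome screen. The spread between libraries set how small a change could be seen. The median SD of a gene score among DMSO libraries at day 14 was 0.16 in the MED23 screen, 0.31 in the MED12 epigenetic screen and 1.02 in the whole-genome screen. The gene score is the mean over a gene's guides of log2 CPM (counts scaled to the size of the library), with 0.5 counts added. Its change between groups is given on the log2 scale with the SE over 3 libraries per group. That SE takes the groups as independent, also in the MED12 knockout screens, where libraries of the same replicate number deviated together. The score weights guides equally, whereas summed CPM follows the most abundant guides, so the 2 measures can differ. A gene was called when its guides ranked together by edgeR and robust rank aggregation (edgeR/RRA) with an adjusted p under 0.05 over all genes of the library.

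UHRF1 and DNMT1, the maintenance pair, were the members called lower by edgeR/RRA for growth in DMSO, while no member among DNMT3A, DNMT3B and the TET genes was called by edgeR/RRA in any comparison of any screen. With limma on gene scores, an alternative given below, some of these other members were called, in comparisons where many more genes were. UHRF1 fell in both knockouts, and under vemurafenib its guides stayed more abundant than under DMSO in MED23 knockout cells. DNMT1 was called in MED12 knockout cells at day 8 and not for growth over 14 days in any screen, and its guides moved in opposite directions.

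**Figure D1:**
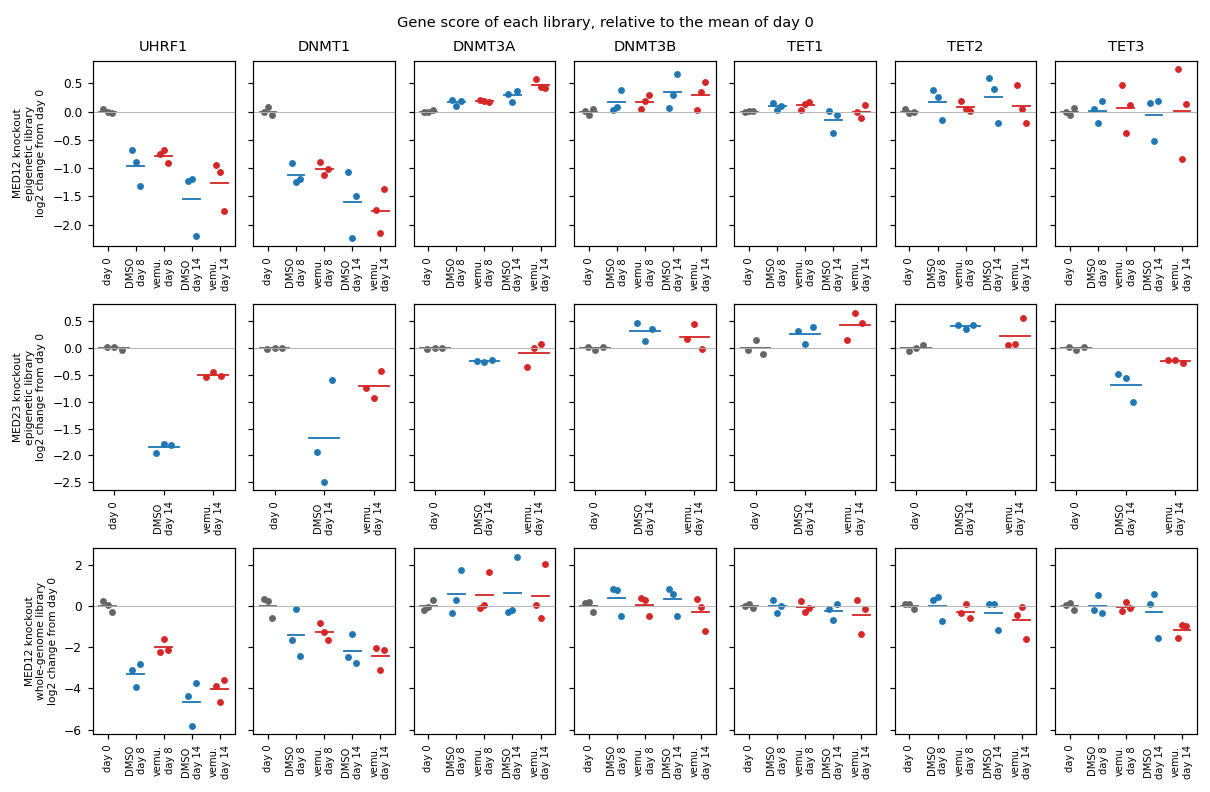
Gene score of each library as a log2 difference from the mean of the day-0 libraries of the same screen (vertical axis) for the 7 genes (columns) in the 3 screens (rows), with 1 point per library and a bar at the group mean, grey for day 0, blue for DMSO and red for vemurafenib. UHRF1 lay below day 0 in every later library of all 3 screens, and in the MED23 screen its 3 vemurafenib libraries lay between its DMSO and day-0 libraries. In the comparisons with day 0 made here, all later libraries lay lower by score for 18.4% to 49.1% of all genes. Each row has its own vertical scale.

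In MED23 knockout cells the summed abundance of the 10 UHRF1 guides was 721, 690 and 678 CPM in the day-0 libraries and 216, 253 and 252 CPM after 14 days in DMSO. The ranges did not overlap, and the 3 DMSO libraries lay close together. By score, all DMSO libraries lay below day 0 for 49.1% of all genes. The gene score fell by 1.84 (a change of -1.84 ± 0.06, edgeR/RRA adjusted p = 0.00305), and 14.8% of genes had a lower change. UHRF1 was the 1 member called lower of 7, where 12.6% of all genes were called lower in this comparison. All 10 guides had a negative log2 fold change, from -3.73 to -0.68, and 9 of them passed edgeR's test singly (adjusted p under 0.05), against 21.8% of all guides called lower.

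Under vemurafenib the same guides summed to 531, 542 and 520 CPM at day 14. Every vemurafenib library lay above every DMSO library and below every day-0 library. Such separation was common: by score, all vemurafenib libraries lay above DMSO for 36.7% and below day 0 for 39.1% of all genes. Relative to DMSO the UHRF1 score rose by 1.34 ± 0.06 (edgeR/RRA adjusted p = 0.00162), and all 10 guides were positive, from 0.37 to 3.26. UHRF1 was the 1 member called higher, where 7.8% of all genes were called higher, and 6 of its guides passed singly, against 7.31% of all guides. Guide 2 moved most: it went from 66.0, 74.9 and 64.2 CPM at day 0 to 6.96, 2.31 and 6.21 CPM in DMSO, and it stood at 51.9, 46.6 and 49.8 CPM in vemurafenib. Its vemurafenib libraries lay below every day-0 library and above every DMSO library. Guide 8 showed another level: it held 116, 95.8 and 107 CPM at day 0, 59.6, 69.2 and 68.0 CPM in DMSO and 146, 132 and 137 CPM in vemurafenib, above its day-0 libraries. Set against day 0, the vemurafenib libraries were lower for UHRF1 by a score change of -0.50 ± 0.03, which was not called (edgeR/RRA adjusted p = 0.469), and no member was called in that comparison, where 16.2% of all genes were. The growth and the vemurafenib comparison share their DMSO libraries, and both calls held in each of the 15 alternatives tried, with adjusted p up to 0.0097 for growth and 0.0156 for vemurafenib.

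Other genes moved in the same way in that screen. The 13 essential genes measured there for scale (ribosomal, spliceosomal, proteasomal and similar subunits) had a median score change of -3.98 for growth and 1.74 for vemurafenib against DMSO, and the median over all genes was -0.19 and 0.17. Control guides named CTRL and Zhang had a median log2 fold change of 1.21 and 1.17 for growth, and those named AAVS1, aimed at a safe-harbour locus, 0.42. For vemurafenib against DMSO these medians were -0.15, -0.17 and -0.07. The most abundant guide of each vemurafenib library held 6.61%, 9.67% and 15.2% of its counts, against 0.0817% to 0.114% in DMSO. The part that these shifts and the most abundant guides have in the UHRF1 difference was not tested.

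**Figure D2:**
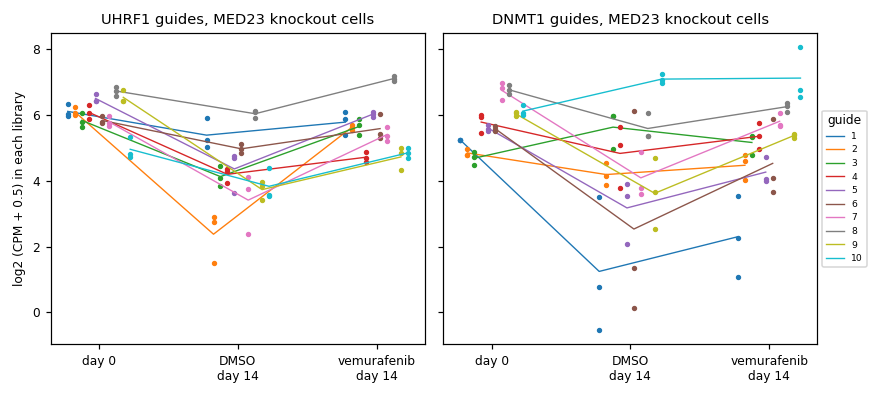
Abundance of each guide, as log2 of CPM plus 0.5, in the day-0, DMSO and vemurafenib libraries of the MED23 knockout screen, with 1 colour per guide number, 1 point per library and lines through the group means. All 10 UHRF1 guides dipped in DMSO and lay higher in vemurafenib, whereas DNMT1 guides 3 and 10 rose in DMSO and guide 1 fell furthest.

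In MED12 knockout cells with the epigenetic library, UHRF1 guides summed to 599, 583 and 582 CPM at day 0. At day 8 in DMSO they summed to 449, 369 and 294 CPM. The groups did not overlap, and library 3 was the lowest. By score, all DMSO libraries lay below day 0 for 34.5% of all genes. The UHRF1 score fell by 0.96 (a change of -0.96 ± 0.19, edgeR/RRA adjusted p = 0.0487), and all 10 guides were negative. DNMT1 was also called, so 2 of 7 members were called lower where 4.93% of all genes were. The UHRF1 call rested on single libraries: the adjusted p was 0.061 without day-0 library 1, 0.0638 without day-0 library 2, 0.402 without DMSO library 3 and 0.0716 in a fit to the groups of that comparison only. None of these fits paired the libraries. With the replicate number as a block, which pairs the libraries of this screen, UHRF1 stayed called, where 13.2% of all genes were called.

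At day 14 in DMSO the UHRF1 guides summed to 391, 477 and 237 CPM, and the score fell by 1.54 (a change of -1.54 ± 0.33, edgeR/RRA adjusted p = 0.00567). UHRF1 was the 1 member called lower, where 2.42% of all genes were. Of its guides 8 were negative and 1 passed singly, against 1.14% of all guides called lower. Without DMSO library 3, which held the fewest UHRF1 guides, the change was -1.21 and the adjusted p 0.0666. With the replicate number as a block UHRF1 stayed called, where 8.7% of all genes were called. Guide 1 shows how the libraries differed: it stood at 51.9, 55.4 and 46.5 CPM at day 0 and at 16.0, 178 and 8.16 CPM at day 14 in DMSO. It was higher than at day 0 in library 2 and lower in the others.

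Vemurafenib at 2 µM did not separate from DMSO for UHRF1 in these cells. The guides summed to 410, 426 and 352 CPM at day 8 and 438, 435 and 263 CPM at day 14, overlapping DMSO on both days. The change against DMSO was 0.19 ± 0.20 at day 8 and 0.28 ± 0.41 at day 14 (edgeR/RRA adjusted p = 1 for both). No member was called in either comparison, where 1.7% of all genes were called at day 8 and 1.43% at day 14, nor in the change of the vemurafenib effect from day 8 to day 14, where 0.538% were. Against day 0 the day-14 vemurafenib libraries all lay lower for UHRF1 (a change of -1.26 ± 0.25), without a call (edgeR/RRA adjusted p = 0.241, no member called, 3.23% of all genes). By score, these libraries all lay lower for 37.3% of all genes.

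The difference between the 2 knockouts was tested in 1 joint model of the epigenetic screens, over their libraries from days 0 and 14. These libraries were scaled anew together, so a difference here need not equal that between the changes given for each screen. For growth, the UHRF1 change was higher by 0.21 ± 0.33 in MED12 than in MED23 knockout cells, without a call (edgeR/RRA adjusted p = 1), and no member was called, against 5.92% of all genes. For vemurafenib against DMSO the UHRF1 difference was -0.86 ± 0.41 (edgeR/RRA adjusted p = 0.169), again with no member called, against 4.22% of all genes. For that UHRF1 difference limma on gene scores gave an adjusted p of 0.0914, and with the replicate number as a block 0.0207, a call made where it called 222 of 1115 genes. With edgeR/RRA the vemurafenib effect called in MED23 knockout cells was thus not shown to differ from that in MED12 knockout cells, and the doses differed, at 1 and 2 µM. In the same model the 13 essential genes had a median difference of 1.98 for growth and -1.60 for vemurafenib against DMSO. What part such a shift has in the UHRF1 difference was not tested. Across the 10 UHRF1 guides, the growth log2 fold changes of both screens had a Pearson r of 0.88 and a Spearman rho of 0.92, as a description over guides that share a target. Over all 11150 gene guides r was 0.46.

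DNMT1 guides summed to 798, 801 and 761 CPM at day 0 in MED12 knockout cells with the epigenetic library, and to 719, 539 and 584 CPM at day 8 in DMSO. The gene score fell by 1.11 (a change of -1.11 ± 0.11, edgeR/RRA adjusted p = 0.0467). The call was lost with scaling on control guides (edgeR/RRA adjusted p = 0.0574) and without day-0 library 2 (0.059), DMSO library 2 (0.162) or DMSO library 3 (0.0814). With the replicate number as a block DNMT1 stayed called, where 13.2% of all genes were called. At day 14 in DMSO the guides summed to 827, 548 and 675 CPM, with library 1 above day 0. The score lay below day 0 in all 3 libraries, by a change of -1.60 ± 0.34, which was not called (edgeR/RRA adjusted p = 0.306). In vemurafenib at day 14 the sums were 1135, 454 and 1177 CPM, above day 0 in libraries 1 and 3, while the score changed by -1.75 ± 0.23 against day 0 (edgeR/RRA adjusted p = 0.133). Guide 10 alone held 431, 308 and 644 CPM of these sums. Against DMSO the score change was -0.15 ± 0.41 (adjusted p = 1).

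DNMT1 guides disagreed with each other in a way that recurred between screens. In MED12 knockout cells guide 1 went from 10.3, 12.8 and 8.21 CPM at day 0 to 2.25, 0 and 0.112 CPM at day 14 in DMSO. In MED23 knockout cells it went from 37.1, 37.6 and 37.1 CPM to 1.19, 0.19 and 10.9 CPM, with library 3 the highest. Guide 10 moved the other way, from 65.9, 78.2 and 64.0 CPM to 133, 151 and 126 CPM in MED23 knockout cells, where DMSO and day 0 did not overlap. Guide 3 was also higher in DMSO in both screens, with a log2 fold change of 0.72 in MED12 and 1.02 in MED23 knockout cells. Over the 10 DNMT1 guides, 7 were negative in both screens and 2 positive in both, with a Pearson r of 0.65 and a Spearman rho of 0.77. For all 11150 gene guides r was 0.46 and rho 0.42, and 7270 had the same sign in both screens.

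In MED23 knockout cells DNMT1 guides summed to 594, 583 and 607 CPM at day 0 and to 326, 281 and 467 CPM in DMSO. All 3 DMSO libraries were lower, but library 3 stood apart, with a score change from day 0 of -0.59 beside -1.93 and -2.49 for the others. The mean change was -1.67 ± 0.56 (edgeR/RRA adjusted p = 0.496), and DNMT1 was called without DMSO library 3 (adjusted p = 0.029). The difference of vemurafenib from DMSO was 0.97 ± 0.58 with overlapping libraries (edgeR/RRA adjusted p = 1).

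**Figure D3:**
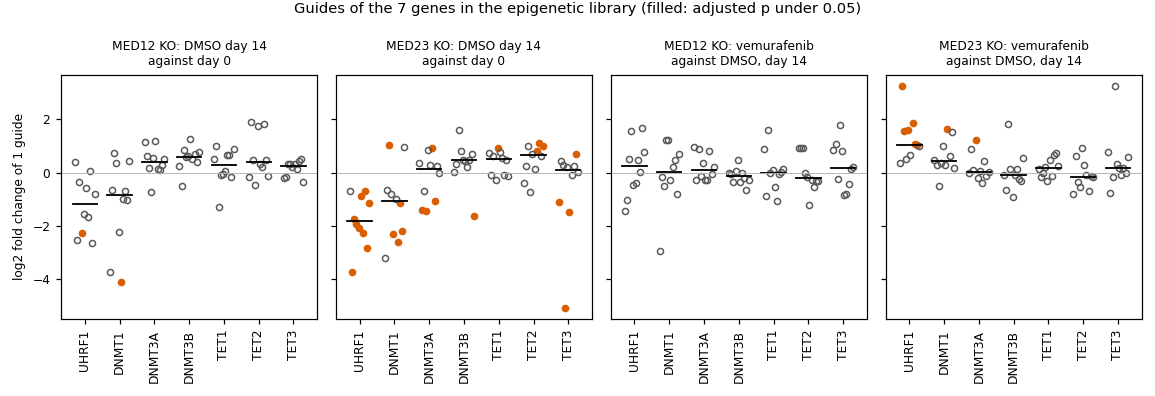
Log2 fold change of each guide of the epigenetic library (1 point per guide, in order of guide number, filled where edgeR's adjusted p was under 0.05, bar at the median) for growth in DMSO and for vemurafenib against DMSO at day 14 in both knockouts. UHRF1 guides lay below 0 in MED23 knockout cells in DMSO and above 0 for vemurafenib, whereas DNMT1 guides spread on both sides of 0 for growth.

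In the whole-genome screen UHRF1 and DNMT1 again had the lowest score changes of the 7 members for growth, with far fewer counts per guide. UHRF1 guides summed to 19.5, 15.5 and 12.6 CPM at day 0, to 6.64, 4.45 and 7.74 CPM at day 8 in DMSO and to 6.12, 1.01 and 12.9 CPM at day 14. Single guides were lost in some libraries and kept in others. Guide 2 had 258, 314 and 275 counts at day 0 and 0, 0 and 399 counts at day 14 in DMSO, and 6 of the 12 guide-by-library values of UHRF1 in that group were 0. The mean of log2 CPM falls further than edgeR's fold change, which uses mean counts, when single libraries are at 0. The score change was -3.28 ± 0.36 at day 8, with a median log2 fold change over guides of -1.34, and -4.64 ± 0.62 at day 14, with a median of -1.69.

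Without the replicate block neither change was called (edgeR/RRA adjusted p = 0.487 and 0.835), and no member was called in any comparison of this screen. The share of all genes called was 0.262% for growth at day 8, 0.152% for growth at day 14, 0.0262% and 0% for vemurafenib against DMSO at days 8 and 14, 0.0524% for vemurafenib at day 14 against day 0 and 0% for the change of the vemurafenib effect. With the replicate number as a block, which in this screen pairs the libraries, UHRF1 was called lower at day 8 (edgeR/RRA adjusted p = 0.0285), where 0.576% of all genes were called. At day 8 in vemurafenib UHRF1 guides summed to 10.2, 6.75 and 7.02 CPM, overlapping DMSO, while their scores lay above DMSO without overlap, by 1.30 ± 0.37 (edgeR/RRA adjusted p = 1). The scores of all vemurafenib libraries lay above DMSO for 1.04% and below it for 0.607% of all genes in that comparison. At day 14 the UHRF1 scores overlapped too (0.59 ± 0.68). The 20 essential genes had medians of -2.07 and -3.14 for growth at days 8 and 14 in this screen. DNMT1 changed by -1.41 ± 0.73 at day 8 and -2.20 ± 0.52 at day 14 in DMSO, without a call (edgeR/RRA adjusted p = 0.771 and 0.989). One DNMT1 guide of 4, guide 4, had a positive fold change on both days, 1.04 and 1.63. Guide numbers of the 2 libraries cannot be matched to each other, since guide sequences were not used here.

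Full separation from day 0 by score was common. For growth over 14 days the scores of all 3 DMSO libraries lay below day 0 for 37.1% and above it for 16.9% of all genes in MED12 knockout cells, and for 49.1% and 24.1% in MED23 knockout cells. In the whole-genome screen these shares were 18.4% and 4.88% at day 8 and 30.1% and 5.04% at day 14.

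DNMT3A, a de novo methyltransferase, had small score changes. In MED12 knockout cells its guides summed to 821, 821 and 834 CPM at day 0 and to 1137, 1194 and 1322 CPM at day 14 in DMSO, so the groups did not overlap. The score change was 0.28 ± 0.06 (edgeR/RRA adjusted p = 0.774). In vemurafenib at day 14 it was 0.48 ± 0.05 against day 0 (edgeR/RRA adjusted p = 0.52), with guide 1 at 371, 1046 and 279 CPM where day 0 held 123, 133 and 135 CPM. In MED23 knockout cells the change for growth was -0.24 ± 0.01, with 3 of 10 guides called lower and 1 higher by edgeR (edgeR/RRA adjusted p = 1 for the gene), where 21.8% of all guides were called lower and 14.4% higher. Over the DNMT3A guides of that comparison the median log2 fold change was 0.12 without day-0 library 1 and -0.10 without DMSO library 2. In the whole-genome screen library 3 stood apart, with a score change of 2.38 at day 14 in DMSO beside -0.30 and -0.20.

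DNMT3B, the other de novo enzyme, changed by 0.34 ± 0.18 for growth over 14 days in MED12 and by 0.32 ± 0.10 in MED23 knockout cells, called in neither (edgeR/RRA adjusted p = 0.395 and 1). In both screens all 3 DMSO libraries lay above day 0 by score and by sum. Guide 3 reached 693 CPM in vemurafenib library 2 of the MED23 screen, beside 61.0 and 31.2 CPM in the other vemurafenib libraries and 23.4 to 25.2 CPM at day 0.

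Among the TET dioxygenases, TET1 changed by -0.15 ± 0.12 for growth over 14 days in MED12 and 0.27 ± 0.13 in MED23 knockout cells, with scores that overlapped day 0 in both. Its sums were above day 0 in every one of these DMSO libraries, at 562, 680 and 546 CPM against 451, 466 and 441 CPM in MED12 knockout cells. TET2 changed by 0.26 ± 0.24 in MED12 knockout cells, with overlapping scores, and by 0.40 ± 0.04 in MED23 knockout cells, where its guides summed to 363, 381 and 378 CPM at day 0 and 483, 533 and 495 CPM in DMSO (edgeR/RRA adjusted p = 0.284), with 3 of 10 guides called higher against the 14.4% of all guides. One TET2 guide made most of the gene's reads in 1 pair of libraries: guide 2 stood at 171 to 176 CPM at day 0 in MED12 knockout cells, and in libraries numbered 1 at day 14 it reached 1278 CPM in DMSO and 3154 CPM in vemurafenib. The other day-14 libraries held 209 to 387 CPM.

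TET3 changed by -0.06 ± 0.24 for growth in MED12 knockout cells and by -0.68 ± 0.17 in MED23 knockout cells, where all 3 DMSO libraries lay below day 0 (edgeR/RRA adjusted p = 1). The median log2 fold change over its 10 guides was 0.12, of the opposite sign to the score. Guides 4, 6 and 1 had the lowest fold changes, -5.08, -1.46 and -1.11. Guide 4 went from 769, 692 and 749 counts at day 0 to 40, 15 and 2 counts in DMSO. In MED12 knockout cells the same guide stood at 9.77, 9.83 and 9.50 CPM at day 0 and at 7.71, 1.07 and 27.4 CPM in DMSO, on both sides of day 0.

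For growth in the epigenetic screens, scaling on control guides shifted all genes of a comparison down alike, so the sign of a small change rested on the choice of scale. The median gene moved from -0.11 to -0.53 for growth over 14 days in MED12 and from -0.19 to -1.22 in MED23 knockout cells. DNMT3B then changed by -0.08 and -0.71, TET2 by -0.15 and -0.62, DNMT3A by -0.13 in MED12 and TET1 by -0.76 in MED23 knockout cells, the opposite sign in each case. UHRF1 changed by -1.95 and -2.87 on that scale and was called in both.

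**Figure D4:**
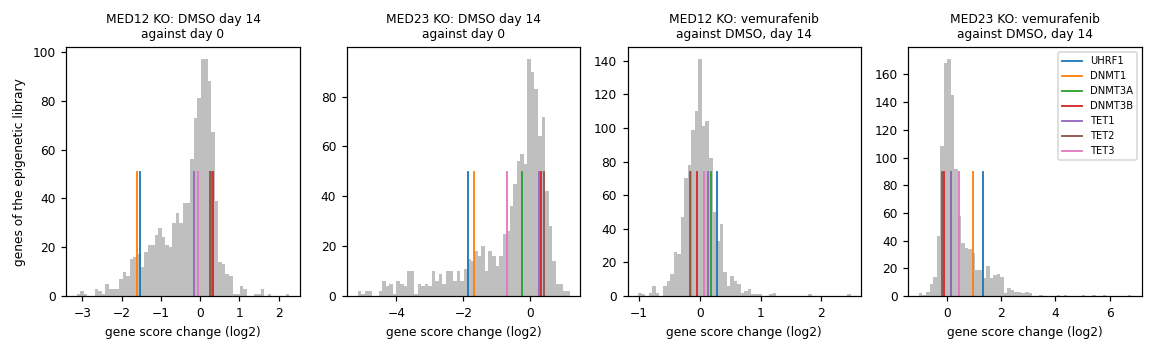
Distribution of gene score changes (log2, horizontal axis) over the 1115 genes of the epigenetic library, with a coloured line at each of the 7 genes, for growth in DMSO and vemurafenib against DMSO at day 14 in both knockouts. UHRF1 and DNMT1 lay in the lower tail for growth, where 8.34% and 7.44% of genes were lower in MED12 and 14.8% and 17.0% in MED23 knockout cells, and the other members lay between -0.68 and 0.40.

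Other genes of the pathway were taken from a list of partners, methyl-CpG readers, base-repair and TET-linked genes, methyl-donor enzymes and linked histone marks, of which 24 were in the epigenetic and 39 in the whole-genome library. For growth over 14 days 1 of 24 was called higher and 1 lower in MED12 knockout cells (list median -0.09, all genes -0.11), where 2.78% of all genes were called higher and 2.42% lower. Where MED23 was knocked out 0 of 24 were called higher and 2 lower (list median -0.27, all genes -0.19), against 5.56% and 12.6% of all genes. These counts are near or below the shares over all genes. USP7, a deubiquitinase that binds UHRF1 and DNMT1, fell in MED12 knockout cells by 2.41 (a change of -2.41 ± 0.58, edgeR/RRA adjusted p = 0.0234). That call was lost without DMSO library 3 (edgeR/RRA adjusted p = 0.166) and with scaling on control guides (0.0838). In MED23 knockout cells USP7 changed by -0.60 ± 0.10 for growth (edgeR/RRA adjusted p = 1), and it was lower in vemurafenib at day 14 than at day 0 by -1.09 ± 0.09 (adjusted p = 0.00959).

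UHRF2, the paralog of UHRF1, and HELLS, a chromatin remodeller that aids methylation, changed by 0.07 ± 0.09 and -0.27 ± 0.08 in MED12 and by 0.20 ± 0.07 and 0.24 ± 0.04 in MED23 knockout cells for growth over 14 days (edgeR/RRA adjusted p = 1 for all 4). OGT, the O-GlcNAc transferase that binds TET proteins, fell during growth where MED23 was knocked out (a change of -3.24 ± 0.21, edgeR/RRA adjusted p = 0.00211, lost with scaling on control guides at 0.254). In MED12 knockout cells OGT was not called for growth, and with the replicate block, which pairs those libraries, it was called lower at day 8 (-1.31, edgeR/RRA adjusted p = 0.00445, 13.2% of all genes called) and day 14 (-1.63, 0.0458, 8.7%). CXXC1, a reader of unmethylated CpG, also fell where MED23 was knocked out (-2.47 ± 0.26, edgeR/RRA adjusted p = 0.0112) and rose in vemurafenib against DMSO (1.83 ± 0.30, adjusted p = 0.000298). GADD45A, a stress protein linked to demethylation, rose in MED12 knockout cells by 0.80 ± 0.08 at day 14 (edgeR/RRA adjusted p = 0.000673), a call lost with scaling on control guides (0.0714) and without DMSO library 1 (0.0508). At day 8 in DMSO in MED12 knockout cells 1 of 24 was called higher, GADD45A (0.45 ± 0.04, edgeR/RRA adjusted p = 0.00659), and 2 lower, USP7 (-1.20 ± 0.16, 0.00729) and EHMT1 (-1.01 ± 0.14, 0.0455), a methyltransferase of histone H3, where 2.96% of all genes were called higher and 4.93% lower. Of these calls, GADD45A was lost with scaling on control guides (0.124) and with limma (0.0889), and USP7 with limma (0.144) and without DMSO library 1 (0.0516). EHMT1 was lost without DMSO library 2 (0.0628), DMSO library 3 (0.062) or day-0 library 3 (0.0506). EHMT1 also had a lower growth change over 14 days in MED12 than in MED23 knockout cells, by -1.11 ± 0.35 (edgeR/RRA adjusted p = 0.00350), lost without MED12 DMSO library 2 (-0.79, 0.0728). Guides to NSD1, another histone methyltransferase, fell in vemurafenib against DMSO where MED23 was knocked out (-0.56 ± 0.13, edgeR/RRA adjusted p = 0.024), where CXXC1 was the 1 of 24 called higher and NSD1 the 1 called lower, against 7.8% and 2.96% of all genes. The NSD1 call was lost without DMSO library 1 (0.053), DMSO library 2 (0.0766) or vemurafenib library 3 (0.0637). Its vemurafenib effect was higher in MED12 than in MED23 knockout cells by 1.50 ± 0.24 (edgeR/RRA adjusted p = 0.00464), lost without MED12 DMSO library 3 (0.168) or MED12 vemurafenib library 3 (0.0593). In the whole-genome screen 0 of 39 were called in any comparison by edgeR/RRA.

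The genes whose score changes from day 0 were closest to those of UHRF1 over the 6 later groups of both epigenetic screens were ZNHIT1, RBM10 and ELP2, with a root mean square difference of 0.13, 0.15 and 0.16 on the log2 scale. For DNMT1 they were H2AFX, RNF8 and HUWE1, at 0.11, 0.15 and 0.17. These are descriptions of 6 group means that share day-0 libraries within a screen.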

How the data were processed

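The values are whole-number counts of reads for each guide in each library, deposited as 1 table per screen and not normalized. Guide sequences were amplified from genomic DNA in 2 PCR rounds, per the labels, with no molecular identifiers mentioned, so counting error alone understates the spread. Demultiplexing used bcl2fastq, alignment HISAT2 and counting HTSeq, per the submitters' processing notes, while the sources used here give neither versions nor the guide reference. All columns had a sample label.

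Members, lists and rules were chosen with earlier results of these data known. Counts were scaled with TMM and tested per guide with edgeR 4.0.16 in R 4.3.3 (quasi-likelihood, filterByExpr minimum count 10 and minimum total 15, 1 mean per group, all libraries of a table, 2-sided). All 12214 guides of the epigenetic library passed, and 77158 of 77441 did in the other. Ranks of a gene's guides were combined by robust rank aggregation (alpha 0.25) with an exact null. The gene p was 2 times the smaller of both directions, adjusted by Benjamini-Hochberg over genes with at least 3 tested guides, with a threshold of 0.05. The scripts were checked on simulated counts with a fixed dispersion and no pairing of libraries. That check does not measure error rates in these data. The 7 members are always named, other genes of the pathway list where called or where their role needs it, essential genes by their median only, and for a member called in an epigenetic screen the 3 nearest genes.

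Libraries with the same replicate number deviated together in both MED12 knockout screens: the correlation of their deviations from the group means was over 0.1 in 30 of 30 pairs of groups and numbers in each (0.34 to 0.89 with the epigenetic and 0.46 to 0.84 with the whole-genome library). These numbers were taken to pair the libraries. In MED23 knockout cells not every pair was over 0.1, and the numbers were not taken to pair libraries. Alternatives were median-of-ratios size factors, scaling on control guides, no filter, a day-0 mean count of at least 100, DESeq2 1.42.0, the replicate block, limma 3.58.1 on gene scores, a fit to the compared groups only and leaving out each library.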

Additional observations from a re-analysis of the deposited data

How the results depend on the processing

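Counts here are of the 7 members called. Median-of-ratios size factors, no filter, a day-0 mean count of at least 100 and DESeq2 left the called members as they were in every comparison. With the replicate block 1 member (UHRF1) was called for growth at day 8 in the whole-genome screen, against 0 without it, and the block changed no other call of a member by edgeR/RRA. Over all genes it raised the number called for MED12 epigenetic growth from 88 to 147 at day 8 and from 58 to 97 at day 14. In the MED23 screen 5 of 9 correlations between libraries of 1 number were over 0.1. The other 4, from -0.169 to -0.125, all involved DMSO library 1 or 2, and in each the highest correlation with another number was 0.249 to 0.306. The block of that screen, and of the joint model, thus joins libraries that did not deviate together, and it is no paired test. No numbers were exchanged.

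limma on gene scores ignores whether guides of a gene agree and called more genes than edgeR/RRA in the comparisons below. In the whole-genome screen it called 1 member for growth at day 8 (102 of 19101 genes), 1 for growth at day 14 (1603) and 2 for vemurafenib at day 14 against day 0 (2339). In the MED12 epigenetic screen it called 3 for growth at day 14 (398 of 1115 genes) and 3 for vemurafenib against day 0 (404). In the MED23 screen it called 5 for growth (692), 3 for vemurafenib against DMSO (433) and 2 for vemurafenib against day 0 (603). limma with the replicate block, chosen after seeing the data, called 1, 2 and 3 members in those whole-genome comparisons (657, 5577 and 7274 genes), 4 and 4 in the MED12 epigenetic ones (567 and 601) and 4, 3 and 3 in the MED23 ones (687, 437 and 613). It also called UHRF1 (1 member) lower for the vemurafenib effect in MED12 minus MED23 knockout cells (adjusted p = 0.0207, range over the alternatives 0.0207 to 0.687).

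For MED12 epigenetic growth at day 8, 1 member was called with scaling on control guides and 1 with the compared groups only, against 2. Leaving out 1 library gave 0 to 2 members for that comparison, 0 to 1 for growth at day 14 and 1 to 2 for growth in the MED23 screen. No called change of a member reversed its direction. UHRF1 had no value in the whole-genome fit to the compared groups only for vemurafenib against DMSO at day 14, since fewer than 3 of its guides passed the filter. Score changes that rest on counts of 0 depend on the 0.5 counts added.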

Other observations

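At day 0 the members already differed between the screens. In the joint scaling the UHRF1 score was 5.62 in MED12 and 6.05 in MED23 knockout cells, a difference of -0.42 ± 0.03 (SE, 3 libraries each). The median over all genes was -0.16, and 13 essential genes had a median of -1.44. DNMT3B lay the other way, 0.52 ± 0.03 higher in MED12 knockout cells, and DNMT3A by 0.28 ± 0.02. The DNMT1 difference was -0.02 ± 0.04. The labels do not give the time between transduction and day 0, and the part of that time was not tested.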
